A study of Mus musculus and Homo sapiens
Mus musculus with 12 samples.

Results

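The dopamine and opioid peptide signalling genes of the striatum were followed through single-nucleus total RNA libraries of mouse brain. The members were 9 genes given by name, Rgs9, Drd1, Drd2, Adora2a, Penk, Pdyn, Tac1, Adcy5 and Ppp1r1b, among 34496 genes in the brain count files, and all 9 were found. They were described in nuclei with at least 4 unique fragment identifiers (UFIs, the molecule counts of this method) of Rgs9 per 10000 UFIs, called Rgs9 nuclei here, which numbered 1346 of 11198 brain nuclei or 12.02%. The brains came from wild-type C57BL/6J male mice aged 6 to 8 weeks with no transgene or drug. They were used fresh or after freezing, were ground in liquid nitrogen, and gave nuclei that were fixed with paraformaldehyde. RNA was copied with random primers that either carried a first barcode (preindex) or did not (no preindex), and by the titles of the samples the 7 brain libraries were 2 frozen no preindex, 2 frozen preindex, 2 fresh no preindex and 1 fresh preindex. For 4 of the 7 brain libraries another label field named the other primer, so each comparison of primers below rests on the titles. Barcodes were 40 bases long in every library titled preindex and 30 in every library titled no preindex. The paper describes a cell barcode of 30 bases and a separate first barcode, so the lengths go with the titles. The labels do not say that libraries of a group came from separate animals, so p-values measure the spread between libraries, which may be technical.

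The striatum is the input station of the basal ganglia, and nearly all of its neurons are GABAergic medium spiny neurons. Direct pathway neurons carry the D1 dopamine receptor (Drd1), which raises cAMP, and make the peptides dynorphin (from Pdyn) and substance P (from Tac1). Indirect pathway neurons carry the D2 dopamine receptor (Drd2), which lowers cAMP, together with an adenosine receptor (Adora2a), and make enkephalin (from Penk). Both kinds use adenylyl cyclase 5 (Adcy5) to make cAMP, DARPP-32 (Ppp1r1b) to relay it to protein phosphatase 1, and RGS9 to shut off the G proteins of inhibitory receptors.

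The members lie on 8 chromosomes of the GRCm38 build (GENCODE M21 annotation), and each was counted over its whole span, introns included. Drd1 is a short gene at chr13:54051183-54055705 on the minus strand with 19.8% of its 4.52 kb in introns, whereas Drd2, at chr9:49340627-49408177 on the plus strand, spans 67.5 kb of which 96.2% is intronic. Adcy5, at chr16:35154877-35305738 on the plus strand, is the longest member at 151 kb. Rgs9 lies at chr11:109225355-109298129 and Ppp1r1b at chr11:98348404-98357796, Adora2a at chr10:75316877-75334784, Penk at chr4:4133531-4138819, Pdyn at chr2:129686565-129699844 and Tac1 at chr6:7554879-7565834. Per kilobase of gene, the level in Rgs9 nuclei was highest for Penk at 0.377 UFIs per 10000 per kb, followed by Rgs9 (0.175), Drd1 (0.170), Adcy5 (0.164) and Ppp1r1b (0.145), with Drd2 at 0.0715, Adora2a at 0.0586, Tac1 at 0.0322 and Pdyn at 0.0212. The method keeps the strand of a transcript, but whether the counting used it is not given in the sources used here. Penk shares 499 bases with the antisense transcript A830012C17Rik and Ppp1r1b shares 7079 bases with the antisense transcript 1700003D09Rik, so the counts of these members could hold reads of their antisense partners.

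Promoters of 6 of the 9 members were in the RefSeq promoter table (GRCm38.p6), with 8 start sites, and Adora2a, Penk and Ppp1r1b were not found there. Because cAMP is the signal that these receptors change, the 250 bases before each start were searched on both strands for the cAMP response element TGACGTCA, the related enkephalin element TGCGTCA and the AP-1 element TGACTCA, and for the TATA box TATAAA. None of these 4 strings holds another of them. The elements were found in 1.55%, 1.75% and 4.46% of all 32851 promoters in the table and the TATA box in 12.4%. Among the member starts 1, of Tac1, held TGCGTCA and 1, of Rgs9, held TATAAA. The match lay 199 bases before the RefSeq start for Tac1 and 195 for Rgs9. RefSeq starts can differ from the GENCODE positions above, and that of Tac1 lies downstream of chr6:7554879. The matches are shown in capitals within the 30 bases around them, at chr6:7554851-7554880 on the plus strand for Tac1 and chr11:109298359-109298388 on the minus strand for Rgs9, each written 5′ to 3′ along the gene.
Tac1: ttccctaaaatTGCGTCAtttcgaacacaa
Rgs9: ctcacttctgtaTATAAAgagattaacagg
One gene of each pathway is shown in full for the 250 bases before its start, Drd2 at chr9:49340153-49340402 (plus strand) for the indirect and Pdyn at chr2:129699939-129700188 (minus strand) for the direct pathway. Neither held any of the 4 strings. The G and C content was 68.8% for Drd2 and 57.2% for Pdyn, against a median of 52.4% over all promoters.
Drd2: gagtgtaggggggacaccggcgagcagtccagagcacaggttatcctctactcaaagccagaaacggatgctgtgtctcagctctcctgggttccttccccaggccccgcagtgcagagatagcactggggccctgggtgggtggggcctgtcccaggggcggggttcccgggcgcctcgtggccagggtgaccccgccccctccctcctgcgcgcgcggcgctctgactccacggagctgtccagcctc
Pdyn: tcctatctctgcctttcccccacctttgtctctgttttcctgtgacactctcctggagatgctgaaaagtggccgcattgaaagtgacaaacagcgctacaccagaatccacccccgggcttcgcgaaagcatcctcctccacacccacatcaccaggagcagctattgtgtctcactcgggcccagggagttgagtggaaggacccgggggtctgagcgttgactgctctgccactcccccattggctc

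The 7 brain libraries held 700 to 3100 nuclei and 8605214 to 42439731 UFIs each, and gave 77 to 391 Rgs9 nuclei. The median depth was 11720 UFIs in Rgs9 nuclei and 12810 in other nuclei. Libraries shared 0 to 10 cell barcodes in any pair with barcodes of the same length. A cluster of 481 nuclei led by kidney transporter genes (Slc34a1, Lrp2, Slc12a1) was found in the 2 frozen preindex libraries, where it made up 10.7% and 11.7% of nuclei, and in none of the other 5. A cluster led by cerebellar granule genes (Fat2, Cbln3, Gabra6) made up 3.85% to 11.2% of nuclei in the 4 no preindex libraries and at most 0.0968% in the 3 preindex libraries. Neither cluster held an Rgs9 nucleus, but both change the nuclei that the Rgs9 nuclei are compared with.

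At the threshold, the lowest nucleus inside held 4.001 UFIs of Rgs9 per 10000 and the highest outside 3.996, with 125 nuclei between 3 and 4 and 105 between 4 and 5. Rgs9 nuclei had a median of 12.7 UFIs of Rgs9 per 10000 and a median of 15 Rgs9 UFIs each. In 92 of them the call rested on fewer than 5 Rgs9 UFIs, and the fewest was 2. The median of the other nuclei was 0, although 30.9% of them held at least 1 Rgs9 UFI.

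Rgs9 nuclei were 12.02% of nuclei and carried 10.5% of all UFIs, but they carried most of the UFIs of 7 of the 8 members that the threshold did not use. They held 89.9% of Adora2a, 79.5% of Drd2, 74.8% of Ppp1r1b, 73.5% of Penk, 69.2% of Tac1, 67.2% of Drd1 and 63.5% of Adcy5 UFIs. Pdyn was the most spread of the members, with 49.8% of its UFIs in Rgs9 nuclei. For Rgs9 itself, which chose the nuclei, the share was 80.9%.

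All 8 of these members were higher in Rgs9 nuclei, and for each the 7 values in Rgs9 nuclei lay above the 7 values in other nuclei. Counts were summed per library over Rgs9 nuclei and over other nuclei and compared with edgeR's quasi-likelihood test with the library as a block, and p-values were adjusted over 12698 genes, of which 52.3% were called at an adjusted p of 0.05 and 24.6% were called higher. With so many genes called, the count of members says less than the size of their differences. How many of all genes tested were likewise without overlap was not counted, and non-members such as Gnal and Gng7 were. The median log2 fold change was 4.59 over the 8 members and -0.01 over all genes tested, and without scaling between sums the median of all genes moved to -0.20. Adjusted p-values of the members lay between 2.21e-14 and 2.55e-10.

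Adora2a, the receptor that couples adenosine to cAMP in indirect pathway neurons, differed most. Its level in Rgs9 nuclei ranged from 0.761 through a median of 0.975 to 1.38 UFIs per 10000, against 0.00987, 0.0130 and 0.0284 in other nuclei, a log2 fold change of 6.41 ± 0.19 (SE) or 85.2-fold. Drd2 ranged from 3.87 through 4.82 to 5.82 UFIs per 10000 in Rgs9 nuclei and from 0.107 through 0.152 to 0.213 in other nuclei, with a log2 fold change of 5.15 ± 0.15. Drd1 ranged from 0.564 through 0.756 to 1.02 and from 0.0339 through 0.0412 to 0.0503, with a log2 fold change of 4.37 ± 0.11. Both dopamine receptors were thus separated between the classes in every library, by 20.6-fold for Drd1 and 35.5-fold for Drd2.

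Among the peptide precursors, Penk ranged from 0.996 through 2.02 to 2.65 UFIs per 10000 in Rgs9 nuclei and from 0.0616 through 0.0901 to 0.109 in other nuclei (log2 fold change 4.72 ± 0.18). Tac1 ranged from 0.269 through 0.378 to 0.439 against 0.0137, 0.0197 and 0.0247 (4.46 ± 0.13). Pdyn ranged from 0.196 through 0.289 to 0.373 against 0.0208, 0.0296 and 0.0420, and its log2 fold change of 3.35 ± 0.11 was the smallest of the members. The lowest Penk value belonged to frozen no preindex replicate 2, which had the highest Drd1 value.

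The cascade genes were found in the largest share of nuclei. Adcy5 ranged from 21.5 through 24.4 to 28.9 UFIs per 10000 in Rgs9 nuclei and from 1.51 through 1.66 to 1.82 in other nuclei (log2 fold change 4.09 ± 0.05). It was detected in 99.4% of Rgs9 nuclei and also in 69.6% of other nuclei, so detection alone did not separate the classes. Ppp1r1b ranged from 1.25 through 1.34 to 1.58 against 0.0456, 0.0575 and 0.0645 (4.84 ± 0.08) and was detected in 70.6% of Rgs9 and 6.75% of other nuclei. Detection of the receptors and peptides in Rgs9 nuclei was 42.0% for Drd2, 41.5% for Drd1, 36.3% for Adora2a, 44.8% for Penk, 26.4% for Tac1 and 19.0% for Pdyn.

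**Figure D1:**
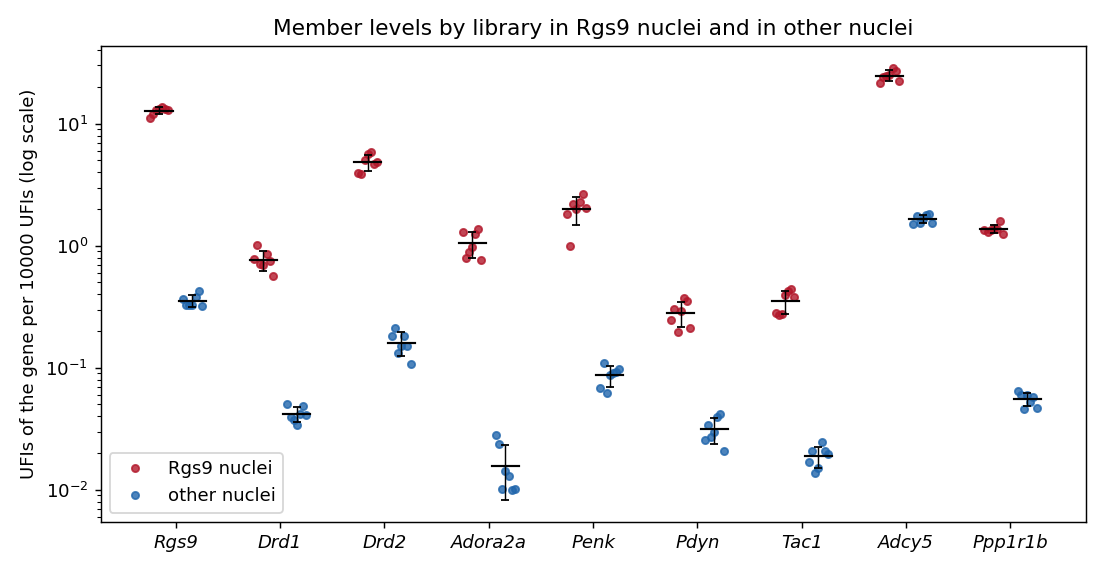
Level of each member (UFIs of the gene per 10000 UFIs, log axis) in Rgs9 nuclei and in other nuclei, with 1 point per library in a fixed order, the mean as a bar and the SD as whiskers (n = 7 libraries). For every gene the 7 points of Rgs9 nuclei sit above the 7 points of other nuclei. Rgs9 chose the nuclei, and its separation is not a result.

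A cell type that should lack most of these genes gave a reference for background. In an oligodendrocyte-like cluster of 320 nuclei with a median of 12720 UFIs, which held 20 Rgs9 nuclei, 6.88% of nuclei held a Drd1, 10.3% a Drd2, 2.19% an Adora2a, 7.81% a Penk, 2.50% a Pdyn, 5.62% a Tac1 and 9.38% a Ppp1r1b UFI. Over all other nuclei the shares were 5.14%, 8.90%, 1.49%, 6.67%, 2.86%, 2.20% and 6.75% in the same order. Except for Pdyn these averages were below the shares of the oligodendrocyte-like nuclei, which include their 20 Rgs9 nuclei. How far those 20 raised the shares was not tested. Differences of these averages from this reference were not tested. The Tac1 average of 2.20% lay below the exact binomial interval of its oligodendrocyte-like share, 3.37 to 8.74%. Averages of Drd1, Drd2, Adora2a, Penk, Pdyn and Ppp1r1b lay within the intervals of theirs, which is no test. Single clusters are described below. Adcy5 was detected in 86.3% of the oligodendrocyte-like nuclei. In the kidney-marker cluster, with a median of 8765 UFIs, no Drd1, Pdyn or Tac1 UFI was found, 0.832% of nuclei held a Drd2 UFI and 9.77% held Adcy5.

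The striatal marker genes changed with the members, but the marker lists were chosen with earlier results of these data known. All 12 medium spiny neuron markers tested were higher in Rgs9 nuclei, with a median log2 fold change of 2.50, and all 7 cortical excitatory, 4 subcortical excitatory, 7 interneuron, 4 cerebellar granule, 7 oligodendrocyte and 4 endothelial and pericyte markers tested were lower. The summed level of the interneuron markers was 3.27 to 7.16 UFIs per 10000 in Rgs9 nuclei and 7.77 to 11.9 in other nuclei. That of the 7 oligodendrocyte markers was 1.15 to 3.51 against 2.98 to 6.04, and that of the 6 astrocyte markers 1.17 to 3.08 against 5.51 to 7.59. Of 5 astrocyte markers tested 2 were lower and 3 not called, and of 6 microglia markers 1 was higher and 5 not called. Of 3 oligodendrocyte precursor markers 1 was higher and 2 were lower. All 4 kidney markers tested were lower, and no liver marker had enough counts to be tested. Of 7 direct pathway markers 5 were higher and 2 not called, while of 6 indirect pathway markers tested 3 were higher, 1 was lower and 2 were not called, and of 6 hybrid medium spiny neuron markers 3 were higher, 1 was lower and 2 were not called.

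The other genes of these pathways were taken from fixed lists. In the cAMP cascade list 16 of 19 genes tested were higher in Rgs9 nuclei and 3 lower, with a median log2 fold change of 1.67. Gng7, the γ subunit of the striatal olfactory-type G protein, was 3.90 ± 0.07 higher on the log2 scale, the phosphodiesterase Pde1b 3.45 ± 0.08, and Gnal, the α subunit that couples D1 and adenosine receptors to adenylyl cyclase, 2.89 ± 0.06. Ric8b, the chaperone of that α subunit, was 2.17 ± 0.04 higher. The 3 lower genes were Prkar1b (-0.53 ± 0.05) and Prkaca (-0.21 ± 0.07), subunits of protein kinase A, and Arpp21 (-0.33 ± 0.05). Prkaca was no longer called without fresh no preindex replicate 2 (-0.20), without fresh preindex replicate 1 (-0.19), with an Rgs9 threshold of 2 UFIs per 10000 (-0.12) or without the 5% of nuclei with most UFIs (-0.17).

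Of the other dopamine receptors only Drd3 had enough counts to be tested and was 3.74 ± 0.14 higher. Of 5 other opioid genes tested, 3 receptors were higher and 2 genes lower. The κ receptor gene Oprk1 differed by 2.07 ± 0.16, the δ receptor gene Oprd1 by 1.10 ± 0.08 and the μ receptor gene Oprm1 by 0.42 ± 0.11, while Oprl1, the nociceptin receptor, differed by -0.83 ± 0.13 and Pnoc, its peptide precursor, by -3.30 ± 0.34. With an Rgs9 threshold of 8 UFIs per 10000, Oprm1 differed by 0.06 and was not called, and with a threshold of 2, Oprl1 differed by -0.36 and was not called. Among tachykinin and adenosine genes 3 of 5 tested were higher, Nt5e, the ectoenzyme that makes adenosine, by 1.61 ± 0.26, Adora1 by 0.62 ± 0.06 and the adenosine transporter Slc29a1 by 0.60 ± 0.14, and 2 were lower, with Tacr3, the neurokinin B receptor, at -1.81 ± 0.29.

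Among non-member genes with no overlap between the classes over the 7 libraries and at least 10 CPM, those that rose most in Rgs9 nuclei were Sh3rf2 (log2 fold change 6.43 ± 0.10), Serpina9 (5.94 ± 0.20), Gm44529 (5.74 ± 0.32), Ptprv (5.65 ± 0.30), Cd4 (5.56 ± 0.24) and Gpr6 (5.13 ± 0.25), the last an orphan receptor of indirect pathway neurons. Those that fell most were Pter (-5.89 ± 0.25), Trabd2b (-5.00 ± 0.35), Igfbp7 (-4.23 ± 0.58), Hnf4g (-4.06 ± 0.39), Rbm47 (-3.98 ± 0.54) and Phldb2 (-3.94 ± 0.48). The summed level of the 6 kidney markers was 0.0711 to 7.96 UFIs per 10000 in other nuclei and 0.0675 to 0.143 in Rgs9 nuclei. The comparison was refitted without the kidney-marker and cerebellar granule clusters, but the values of these 6 lower genes there are not given here. The part of the kidney-marker cluster alone in them was not tested. Within the fresh libraries alone and the no preindex libraries alone, Rbm47 differed by -1.11 and -0.51 and was not called.

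Rgs9 nuclei were then divided by the receptors they held. A nucleus with at least 1 Drd1 UFI and no Drd2 or Adora2a UFI was put on the direct side, and one with a Drd2 or Adora2a UFI and no Drd1 UFI on the indirect side. The direct side held 513 nuclei or 38.1% of Rgs9 nuclei (exact 95% binomial interval 35.5 to 40.8%) and the indirect side 533 or 39.6% (37.0 to 42.3%). Receptors of both sides were found in 45 nuclei or 3.34% (2.45 to 4.45%), and none of the 3 receptors in 255 nuclei or 18.9% (16.9 to 21.1%). Intervals cover counting error only. Pooled over libraries, the median depth was 13230 UFIs on the direct side, 11370 on the indirect side, 19940 in nuclei with both and 9200 in nuclei with neither. Within libraries the direct median was above the indirect in 4 of 7.

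Drd1 and Drd2 seldom shared a nucleus. They were found together in 36 Rgs9 nuclei where 234 would follow from their separate shares within each library. Of nuclei with Drd1, 6.45% also held Drd2, whereas 67.1% of nuclei without Drd1 did. The log2 odds ratio of detection, computed per library with 0.5 added to each cell of the 2 by 2 table, was -5.13 ± 1.13 (SD, n = 7) and was negative in 7 of 7 libraries, from -6.93 to -3.63. For Drd1 and Adora2a it was -5.13 ± 0.49, with 27 nuclei observed and 205 expected.

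Drd2 and Adora2a, by contrast, had the highest log2 odds ratio of all pairs of members tested. Of 489 nuclei with Adora2a, 476 held Drd2 as well, or 97.3%, against 207 expected, and the log2 odds ratio was 8.23 ± 0.73 (7.31 to 9.37 over libraries). Of nuclei with Drd2, 84.3% held Adora2a.

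The peptides followed the receptors. Penk was found in 91.5% of nuclei with Drd2 and in 95.5% of nuclei with Adora2a (log2 odds ratios 6.12 ± 1.48 and 6.34 ± 0.90), but in 14.3% of nuclei with Drd1 (-3.80 ± 0.85). Pdyn and Tac1 were found in 35.7% and 45.9% of nuclei with Drd1 and in 7.11% and 12.6% of nuclei without it, with log2 odds ratios of 2.97 ± 1.27 and 2.87 ± 0.90. With Drd2 the log2 odds ratios were -3.90 ± 0.60 for Pdyn and -3.69 ± 0.90 for Tac1, and with Adora2a they were -4.49 ± 1.06 and -3.81 ± 0.74.

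Among the peptides themselves, Pdyn and Tac1 were found together in 136 nuclei where 73.6 were expected (log2 odds ratio 2.12 ± 0.86, from 0.61 to 3.29 over libraries). Penk was found with Pdyn in 34 nuclei (117 expected, -2.86 ± 0.67) and with Tac1 in 52 nuclei (162 expected, -3.07 ± 1.06). All 15 pairs among the 6 receptor and peptide genes had the same sign in 7 of 7 libraries, 9 negative and 6 positive. Each gave the smallest p that 7 libraries allow in a two-sided exact sign-flip permutation test, 0.0156, and 0.0273 after adjustment over 28 pairs.

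Adcy5 and Ppp1r1b gave little co-detection structure with the other members. Of 13 pairs with Adcy5 or Ppp1r1b, 12 were not called, with log2 odds ratios between -0.93 and 0.84. The called pair, Adcy5 with Ppp1r1b (2.68 ± 1.21), rested on 8 Rgs9 nuclei without Adcy5 and on the added 0.5. Adcy5 was present in 99.4% of nuclei, so detection could hardly vary.

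**Figure D2:**
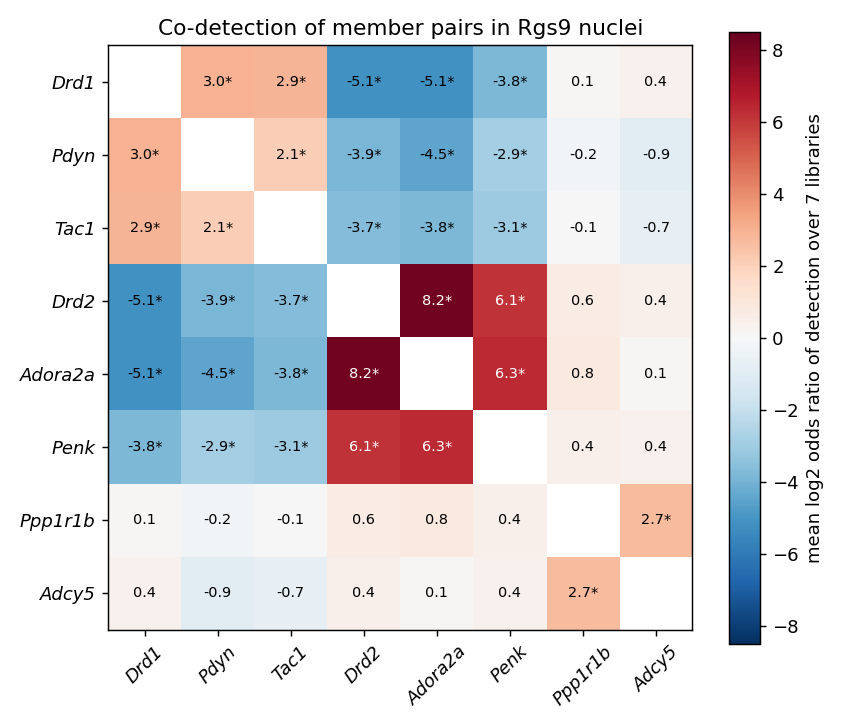
Mean log2 odds ratio of detection for each pair of members over 7 libraries in 1346 Rgs9 nuclei, with red for pairs found together more often and blue for pairs found together less often than their separate shares give, and an asterisk at an adjusted p under 0.05. Drd1, Pdyn and Tac1 form 1 red block, Drd2, Adora2a and Penk another, and all 9 pairs between the blocks are blue.

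Levels of the peptides were compared between the sides, with Drd1, Drd2, Adora2a and Rgs9 left out since they chose the nuclei. These are the same nuclei as in the co-detection counts, so the levels are no independent support for them. In the edgeR test 5.74% of 7817 genes were called, 3.07% higher on the direct side and 2.67% lower. Of the 5 members tested 2 were higher, 1 was lower and 2 were not called. Penk ranged from 0.0757 through a median of 0.192 to 0.383 UFIs per 10000 on the direct side and from 3.02 through 4.89 to 5.77 on the indirect side. All indirect values lay above all direct values, and the log2 fold change of direct over indirect was -4.68 ± 0.17 (adjusted p = 4.51e-13).

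Pdyn ranged from 0.334 through 0.428 to 0.599 on the direct side and from 0 through 0.00573 to 0.0476 on the indirect side, where 3 libraries had none. Its log2 fold change was 5.40 ± 0.34 (adjusted p = 2.00e-09) and rested on 378 UFIs on the direct and 7 on the indirect side. Tac1 ranged from 0.385 through 0.611 to 0.727 against 0, 0.0342 and 0.0605, with 2 indirect libraries at 0, and its log2 fold change was 4.10 ± 0.22 (adjusted p = 1.52e-10).

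Adcy5 and Ppp1r1b were not called. Adcy5 was at 24.9 ± 1.87 UFIs per 10000 on the direct and 25.9 ± 3.21 on the indirect side (SD, n = 7), a log2 fold change of -0.08 ± 0.06 (SE, adjusted p = 0.666). Ppp1r1b was at 1.44 ± 0.11 and 1.47 ± 0.19, a log2 fold change of -0.07 ± 0.08 (adjusted p = 0.854). Both directions turned with an Rgs9 threshold of 2 UFIs per 10000 (0.0701 and 0.0685).

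**Figure D3:**
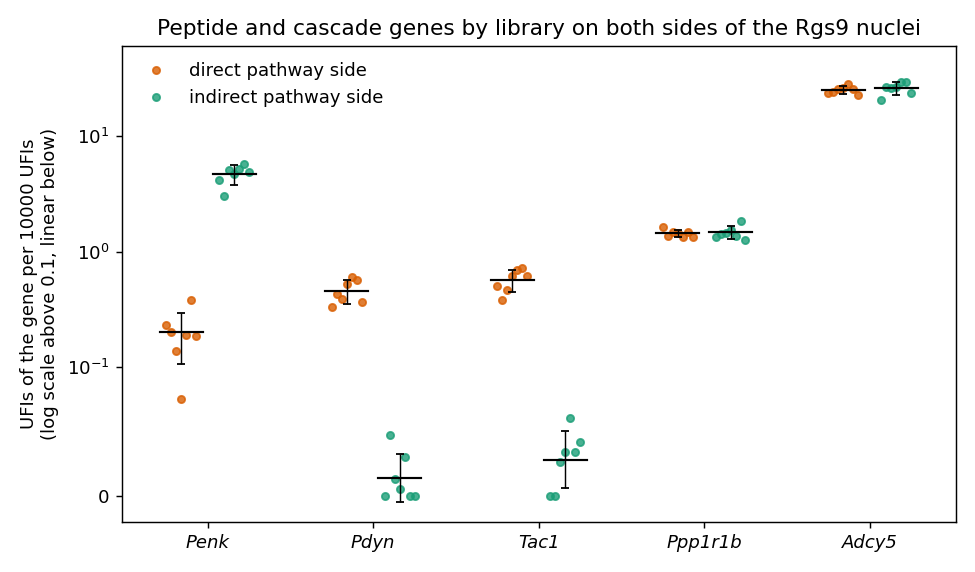
Level of the 5 members that did not choose the sides (UFIs per 10000, log scale above 0.1 and linear below) on the direct and indirect side of the Rgs9 nuclei, with 1 point per library, the mean as a bar and the SD as whiskers (n = 7). Penk is higher on the indirect side and Pdyn and Tac1 on the direct side in every library, while the points of Ppp1r1b and Adcy5 overlap.

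The nuclei with none of the 3 receptors were nearer to the direct side in their peptides. Pdyn was detected in 20.0% and Tac1 in 32.9% of these 255 nuclei, while Penk was detected in 8.24%, against 36.1%, 45.4% and 11.7% on the direct side and 0.938%, 2.81% and 94.2% on the indirect side. Their levels were 0.566 ± 0.341, 0.549 ± 0.223 and 0.136 ± 0.125 UFIs per 10000 for Pdyn, Tac1 and Penk, and these differences from either side were not tested. On their own sides Drd1 was at 1.63 ± 0.20 and Drd2 at 12.3 ± 1.76 UFIs per 10000, as the division requires.

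The 45 nuclei with receptors of both sides had the highest median depth of the 4 classes in 6 of 7 libraries. In frozen preindex replicate 1 it was the lowest, at 8297 UFIs over 5 nuclei. Drd1 was together with Drd2 in 36, with Adora2a in 27 and with both in 18, and 9 of the 45 held at least 2 UFIs of each side. Of the 45, 6 were among the 5% of nuclei with most UFIs in their library, where 51 Rgs9 nuclei lay in all. Penk was detected in 44.4%, Pdyn in 31.1% and Tac1 in 51.1% of them, and the part of doublets in this class was not tested.

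Other genes divided with the sides. All 7 direct pathway markers of the fixed list were higher on the direct side and all 6 indirect pathway markers tested were lower. Over all genes tested 3.07% were called higher and 2.67% lower. The lists were chosen with earlier results of these data known, so these counts are no independent support for the sides. Slc35d3, a transporter-like protein needed for D1 receptor traffic, differed by 4.86 ± 0.41 on the log2 scale, Chrm4, the M4 muscarinic receptor, by 4.67 ± 0.30, the transcription factor Ebf1 by 4.66 ± 0.20 and the homeobox factor Isl1 by 4.20 ± 0.41. Impg1 (4.85 ± 0.32) and Cntnap3 (4.60 ± 0.16) were the other direct-side genes of the 6 with the largest differences. On the indirect side the largest were Gpr6 (-5.30 ± 0.45), the kainate receptor subunit Grik3 (-4.32 ± 0.15), Oprd1 (-4.18 ± 0.18), the transcription factor Sp9 (-3.36 ± 0.37), Nt5e (-3.35 ± 0.29) and Ptprm (-2.70 ± 0.10).

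Of 3 other opioid genes tested between the sides, 1 was called. Oprd1, whose product binds enkephalin, was at 4.22 CPM on the direct and 82.5 CPM on the indirect side. Oprk1, whose product binds dynorphin, was at 30.2 and 24.4 CPM and was not called (0.27 ± 0.16, adjusted p = 0.520). Drd3 was higher on the direct side by 1.75 ± 0.16. Of 19 genes of the cAMP cascade list 3 were lower on the direct side and 16 not called, among the lower ones Gnb5 (-0.43) and Gng7 (-0.36). With an Rgs9 threshold of 2 UFIs per 10000 neither was called (-0.32 and -0.21), nor was Gnb5 with sides from nuclei thinned to 5000 UFIs (-0.32). Of 5 hybrid medium spiny neuron markers tested 4 were higher on the direct side, Casz1 (1.51), Col11a1 (1.25), Otof (1.10) and Tshz1 (1.02). Casz1 lost its call when frozen no preindex replicate 2, fresh no preindex replicate 1 or fresh no preindex replicate 2 was left out (1.33, 1.33 and 1.15), and was at 0.82 in frozen libraries alone and 0.56 in preindex libraries alone, where it was not called. Of 12 medium spiny neuron markers 2 were higher on the direct side, 4 lower and 6 not called. Of the markers of other cell types with enough counts, 1 of 4 cortical excitatory markers and the 1 interneuron marker tested were higher on the direct side, the 1 cerebellar granule marker was lower, and none of 5 oligodendrocyte, 2 astrocyte, 1 subcortical excitatory, 1 oligodendrocyte precursor and 1 microglia markers was called.

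Clusters of all brain nuclei placed the members by cell type, as a description with no test. A medium spiny neuron-like cluster of 1287 nuclei held 1196 Rgs9 nuclei, or 88.9% of them. Of the other 150, 34 were in a cluster led by Rmst and Ebf3, 32 in an astrocyte-like cluster and 20 in the oligodendrocyte-like cluster. Rgs9 nuclei made up 15.0% of the astrocyte-like cluster. Among 26 clusters the medium spiny neuron-like cluster had the highest level of 8 of the 9 members in UFIs pooled over libraries, and of all 9 by the mean over libraries with at least 10 nuclei of the cluster, among clusters with such a library.

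Drd1 was also high in a cluster of 58 nuclei led by Otof, Tshz1 and Foxp2. Pooled over libraries its level there was 0.813 UFIs per 10000, against 0.741 in the medium spiny neuron-like cluster, but the order turned in the mean over libraries, which was 0.622 (4 libraries, 0.370 to 1.10) against 0.780 (7 libraries, 0.613 to 1.00). In these 58 nuclei, 23 held Drd1 (39.7%, exact 95% interval 27.1 to 53.4%) and 33 held Penk (56.9%, 43.2 to 69.8%), while 1 held Drd2 and none held Adora2a. Drd1 and Penk were found in the same nucleus in 16 of the 58, over 6 libraries, where 13.1 would follow from their separate shares. In the medium spiny neuron-like cluster they were found together in 78 of 1287 nuclei where 245 would follow. Only 9 of its 58 nuclei were Rgs9 nuclei, as its Rgs9 level was 2.07 UFIs per 10000. Pdyn was at 0.196 pooled and 0.120 as the mean of 4 libraries, where it ranged from 0 to 0.309.

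Drd2 was also high outside the striatal cluster. In a cluster of 26 nuclei led by the cholinergic genes Chat and Slc5a7 it was at 3.21 UFIs per 10000 and was found in 12 nuclei (46.2%, 26.6 to 66.6%), with no Drd1 UFI and no Adora2a UFI. In 144 nuclei led by Ano2 and Prdm16 it was at 1.11 and was found in 82 (56.9%, 48.4 to 65.2%). Both shares were above the 10.3% of the oligodendrocyte-like nuclei, and both clusters held no Rgs9 nucleus. The median depths were 18520 and 14480 UFIs, and no library held 10 nuclei of the cholinergic cluster.

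The peptide genes had further places. Penk was found in 21.7% (17.4 to 26.5%) of 341 nuclei led by Vip and Adarb2. Pdyn was found in 11.8% (8.82 to 15.3%) of 407 nuclei led by Dsp, C1ql2 and Prox1, and in 9.46% (7.30 to 12.01%) of 634 nuclei led by Sst, against 2.50% in the oligodendrocyte-like nuclei. Tac1 was found in 10.9% (8.57 to 13.6%) of the nuclei led by Sst, an interval that overlaps the 3.37 to 8.74% of the oligodendrocyte-like nuclei. Drd1 was found in 24.2% (16.2 to 33.9%) of 99 nuclei led by Oprk1 and Nr4a2 and in 11.3% (9.19 to 13.7%) of 786 nuclei led by Hs3st4 and Tle4. The latter interval overlaps the 4.36 to 10.2% of the oligodendrocyte-like nuclei for Drd1. Overlap of intervals is no test, and differences of these clusters from the reference were not tested.

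**Figure D4:**
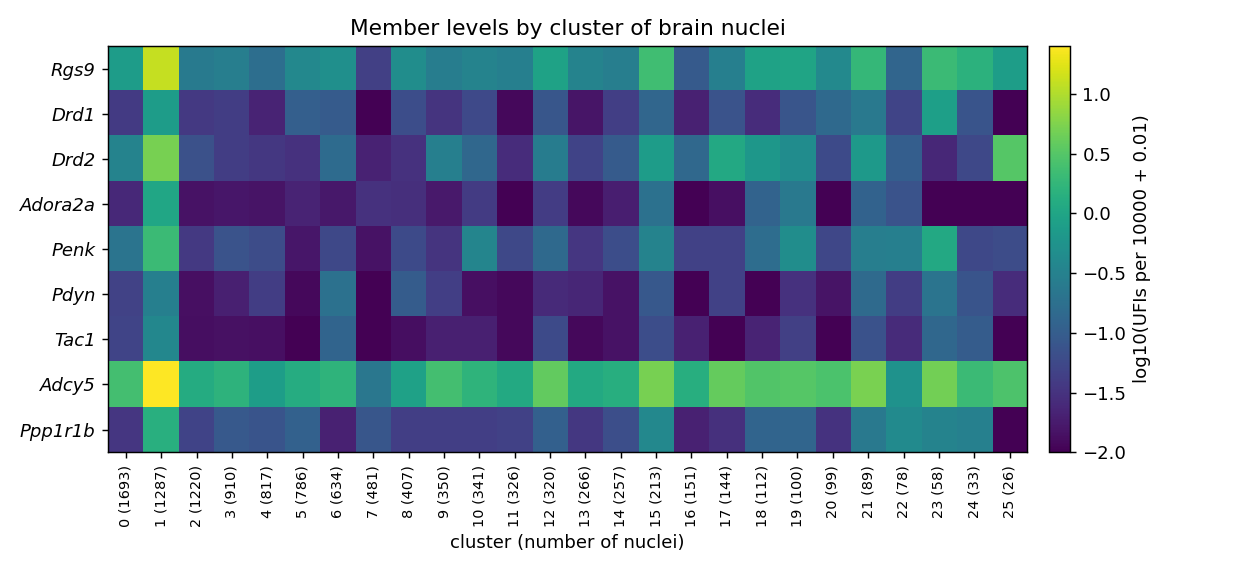
Level of each member in 26 clusters of brain nuclei, as log10 of UFIs per 10000 (pooled over libraries) plus 0.01, with the number of nuclei of each cluster in parentheses. Cluster 1 is the medium spiny neuron-like cluster, cluster 23 is led by Otof and Tshz1, and cluster 25 by Chat and Slc5a7. Drd2 is high in clusters 1, 25 and 17, and Drd1 in clusters 1 and 23.

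Across the 26 clusters, genes whose pattern was among the most like the mean of the 9 members were Ptprv (Pearson r = 0.856), Gpr6 (0.813), Serpina9 (0.797), Gm26907 (0.795) and Syndig1l (0.793). The clusters share libraries and were built from the counts of these same nuclei, with the 9 members left out, so r is a description.

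Freezing and the primer were compared over libraries. Rgs9 nuclei were 12.8% ± 1.47 of nuclei in 4 frozen and 9.33% ± 2.86 in 3 fresh libraries (two-sided exact permutation p = 0.171). They were 13.5% ± 0.83 in 3 preindex libraries, from 12.6 to 14.2%, and 9.69% ± 2.39 in 4 no preindex libraries, from 7.38 to 12.4% (exact permutation p = 0.0571). The ranges did not overlap, and this is the smallest p that 3 against 4 libraries allow in this two-sided test. Thinned to 5000 UFIs per nucleus, the shares were 15.7% and 12.1% (exact permutation p = 0.0571). The cerebellar granule cluster made up 3.85% to 11.2% of nuclei in no preindex libraries and at most 0.0968% in preindex libraries. The kidney-marker cluster made up 11.7% and 10.7% in the frozen preindex libraries. Both clusters are among the nuclei over which these shares are taken, and shares without them were not tested. The direct side was 51.9% ± 9.83 of sided nuclei in frozen and 50.7% ± 6.59 in fresh libraries (exact permutation p = 0.914) and 46.8% ± 2.99 in preindex and 54.8% ± 9.16 in no preindex libraries (p = 0.229). Thinned to 5000 UFIs per nucleus, the direct side was 43.0% in frozen and 39.5% in fresh libraries (exact permutation p = 0.686). In preindex and no preindex libraries it was then 35.5% and 46.0% (exact permutation p = 0.114). After thinning the mean direct share was thus lower in frozen, fresh, preindex and no preindex libraries alike. The part of depth in the differences between libraries was not tested.

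Within Rgs9 nuclei no member was called for storage or for primer. In the test of storage 0.396% of 12127 genes were called, and in that of primer 3.88%. Rgs9 chose the nuclei and was not read here, and 2 of the 8 others had an unadjusted p under 0.05 in each test. Penk was at 1.81, 0.996, 2.21 and 1.99 UFIs per 10000 in the 4 frozen and at 2.29, 2.65 and 2.02 in the 3 fresh libraries, and the ranges overlapped (log2 fold change of frozen over fresh -0.48 ± 0.17, edgeR adjusted p = 0.494). Tac1 was at 0.281, 0.269, 0.277 and 0.397 against 0.428, 0.439 and 0.378, also with overlap (-0.42 ± 0.16, adjusted p = 0.556). For primer, Drd2 differed by 0.34 ± 0.11 (adjusted p = 0.101) and Drd1 by -0.32 ± 0.11 (adjusted p = 0.144) in preindex over no preindex libraries. Drd2 was called in 4 alternatives, among them without fresh no preindex replicate 1 (0.43) and without fresh preindex replicate 1 (0.53). Of the lists, 5 of 19 cAMP cascade genes and 5 of 12 medium spiny neuron markers were higher with preindex. All 3 cerebellar granule markers tested were lower, and their list summed to 0.00684 to 0.0215 UFIs per 10000 in Rgs9 nuclei of preindex libraries and 0.245 to 0.9499 in those of no preindex libraries. Of 6 astrocyte markers 3 were lower with preindex, as were 2 of 6 cortical excitatory markers, and the part of RNA from other cells in these differences was not tested.

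Over all nuclei of a library, where more Rgs9 nuclei and more RNA per nucleus cannot be told apart, 5 of 9 members were higher in preindex libraries. There 15.8% of 19299 genes were called. Penk differed by 0.60 ± 0.08 on the log2 scale (edgeR adjusted p = 0.00504), Drd2 by 0.53 ± 0.09 (0.00851), Rgs9 by 0.52 ± 0.06 (0.00245), Ppp1r1b by 0.35 ± 0.07 (0.0182) and Adcy5 by 0.31 ± 0.07 (0.0208). Tac1 differed by 0.39 ± 0.13 and was not called (adjusted p = 0.0843). Drd1, Adora2a and Pdyn were not called either. Of the lists, 7 of 12 medium spiny neuron markers were higher with preindex and none lower, and all 4 cerebellar granule markers were lower. The calls of Adcy5 were lost without frozen preindex replicate 1, frozen preindex replicate 2 or fresh no preindex replicate 1 (0.32, 0.30 and 0.33) and those of Ppp1r1b without frozen no preindex replicate 1 or frozen preindex replicate 2 (0.35 and 0.34). The share of Rgs9 nuclei among all nuclei, granule and kidney-marker nuclei included, was higher in each preindex library than in any no preindex library. The part of this share in these differences was not tested.

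For storage over all nuclei 0.207% of genes were called and no member among them. Ppp1r1b (0.37 ± 0.07, adjusted p = 0.104), Rgs9 (0.27 ± 0.06, 0.115) and Drd1 (0.45 ± 0.10, 0.133) were nearest. Without the kidney-marker and cerebellar granule clusters these 3 were called, at 0.48, 0.40 and 0.57. They were also called without fresh preindex replicate 1 (0.43, 0.34 and 0.59).

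The difference between Rgs9 nuclei and other nuclei itself varied with the primer for 1 member. In interaction tests 0.102% of 12698 genes were called for storage, with no member among them, and 1.49% for primer, Drd2 among them. Drd2 in Rgs9 nuclei was at 5.00, 5.63 and 4.82 UFIs per 10000 in the 3 preindex libraries and at 3.97, 3.87, 5.82 and 4.68 in the 4 no preindex libraries. In other nuclei it was at 0.132, 0.152 and 0.107 against 0.181, 0.213, 0.183 and 0.150 in the same order, and the 2 sets overlapped. The gap between the classes was 0.80 ± 0.11 wider on the log2 scale with preindex (edgeR adjusted p = 0.00515). The call was lost without frozen no preindex replicate 2 (0.68) and with an Rgs9 threshold of 8 UFIs per 10000 (0.42). The interaction of Drd2 with storage was -0.52 ± 0.11 (adjusted p = 0.146) and was called without fresh preindex replicate 1 (-0.70), without the kidney-marker and cerebellar granule clusters (-0.66) and with no filter on low counts (-0.51).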

How the data were processed

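Single-nucleus total RNA was measured in 7 mouse brain libraries and 5 mixtures of human 293T and mouse 3T3 nuclei. The deposited files hold raw counts, UFIs per gene and nucleus. Per the study's methods and the submitters' processing notes, the authors trimmed tissue reads (cutadapt) and aligned them with STAR. They assigned uniquely mapped reads to whole genes (featureCounts), collapsed UFIs (UMI-tools) and set a read cutoff per library for barcodes. The mixtures were counted with STARsolo. The methods name GRCh38 for tissue while the notes also list GRCm38 and mm10, so genes were taken by symbol, and positions come from GENCODE M21.

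Members and gene lists were chosen with earlier results of these data known. Groups follow the sample titles. Counts were summed per library and class and tested with edgeR 4.0.16 (quasi-likelihood, TMM scaling, filterByExpr, Benjamini-Hochberg adjustment at 0.05) in R 4.3.3. DESeq2 1.42.0 was an alternative. Co-detection and shares were tested with exact permutation tests over libraries in Python 3.11.15 (scipy 1.17.1). Genes named beside the members were the 6 highest and 6 lowest by fold change among called genes with at least 10 CPM and no overlap between classes, plus examples from the lists. Nuclei were clustered with scanpy 1.11.5 on 2000 variable genes other than the members. Settings were 40 components, 10 neighbours and a Leiden resolution of 0.4, with no nucleus removed as a doublet. Libraries held 8605214 to 42439731 UFIs, and counting error limits genes with few UFIs, such as Pdyn. On simulated counts with 200 genes changed by 1.5 on the log2 scale, edgeR recovered 193 in the comparison of Rgs9 with other nuclei (12699 genes) and 200 in that of the sides (7821 genes), with 4.93% and 2.91% false calls. Fewer genes were changed than were called in the data, and the simulated libraries shared a baseline, so these rates may not hold for the data. Alternatives covered the Rgs9 threshold, scaling, filters, depth, detection, libraries left out and the replicate number as a block. One gene is not reported here.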

Additional observations from a re-analysis of the deposited data

Results flagged for a closer look

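Of 56 groups of member values tested for a sample far from the others, 3 held one, and chance gives about 1 in 20. Tac1 in Rgs9 nuclei was at 0.397 UFIs per 10000 in frozen preindex replicate 2, against 0.269 to 0.281 in the other 3 frozen libraries. Ppp1r1b in Rgs9 nuclei was at 1.58 UFIs per 10000 in fresh no preindex replicate 2, above the other 6 libraries. Rgs9 in other nuclei was at 0.368 UFIs per 10000 in frozen no preindex replicate 1, above the other 3 frozen libraries.

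The gap in Drd2 between Rgs9 nuclei and other nuclei differed between primers by 0.80 on the log2 scale, with the values and the libraries on which the call rests given with the interaction tests above.

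In the 5 mixtures of human 293T cells (embryonic kidney) and mouse 3T3 cells (fibroblasts), which no comparison above uses, mouse genes could be counted in 17218 barcodes of 3T3 and 22714 of 293T nuclei. Barcodes were assigned where a single species held a large majority of the UFIs, and more mixed barcodes were left out. Rgs9 UFIs were found in 0.145% of 3T3 and 0.0264% of 293T barcodes, Drd2 in 0.0929% and 0.00881%, Adcy5 in 0.157% and 0.0440% and Ppp1r1b in 0.250% and 0.00440%. Adora2a was found in 0.0813% of 3T3 barcodes and in 0 of 22714 of 293T, which allows a share of up to 0.0132%. Penk was found in none of either, which allows up to 0.0174% of 3T3 barcodes, and Drd1, Pdyn and Tac1 were each found in 1 3T3 barcode. Per 10000 mouse UFIs, Ppp1r1b in 3T3 barcodes was at 0.00269 to 0.0320 and Adora2a at 0.00141 to 0.00873 over the 5 mixtures. The lowest values among the 7 brain libraries in other nuclei were 0.0456 and 0.00987 per 10000 UFIs. The paper counted the mixtures with STARsolo and tissue with featureCounts, so these levels may not be on the same scale.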

How the results depend on the processing

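The 8 members tested kept their direction and call between Rgs9 and other nuclei in all 20 alternatives (lowest log2 fold change 3.06 for Pdyn, highest 6.88 for Adora2a), and Penk (-5.29 to -4.15), Pdyn (4.62 to 6.04) and Tac1 (3.86 to 4.61) did so between the sides in all 21. Adcy5 and Ppp1r1b, not called between the sides, turned to 0.0701 and 0.0685 with an Rgs9 threshold of 2, and Ppp1r1b to 0.0210 with sides from nuclei thinned to 5000 UFIs. The difference in the direct share between frozen and fresh libraries turned to -0.643 percentage points with a threshold of 2. Where an alternative uses fewer libraries, fewer calls can follow from its construction, but calls also rose in some, as over all nuclei without fresh preindex replicate 1. For such rises and for the other alternatives the cause was not tested.

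Genes called for the storage interaction were 154 with no filter on low counts, 4 with a threshold of 2, 2 without the 5% of nuclei with most UFIs and 20 with Rgs9 nuclei of the medium spiny neuron-like cluster only, against 13. Those for the primer interaction were 541, 70 (threshold of 2) and 288 (cluster only), against 189. Between the sides 227 were called in frozen, 211 in fresh and 208 in no preindex libraries alone, against 449. Storage in Rgs9 nuclei gave 141 with no filter, 1 without the primer term and 27 with a threshold of 2, against 48. Primer in Rgs9 nuclei gave 831 with no filter, 252 without the storage term and 313 with a threshold of 8, against 471. Storage over all nuclei gave 318 by DESeq2, 1937 with no filter, 76 without the kidney-marker and granule clusters and 0 by edgeR without the primer term (1907 genes with an unadjusted p under 0.05), against 40. Primer over all nuclei gave 4787 with no filter, against 3041. Of 28 pairs 26 were called with a threshold of 2, where more nuclei outside the medium spiny neuron-like cluster enter, and 0 by the permutation test in frozen, fresh, preindex or no preindex libraries alone, which are too few to reach the threshold. The signs of the 16 called pairs turned in none of 18 alternatives.

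Leaving out each library in turn gave 6000 to 6721 calls between Rgs9 and other nuclei, 325 to 475 between the sides, 5 to 18 and 12 to 424 for the storage and primer interactions (12 without frozen no preindex replicate 2), 29 to 49 and 161 to 466 for storage and primer in Rgs9 nuclei, 4 to 840 and 1009 to 5668 over all nuclei (840 and 5668 without fresh preindex replicate 1), and 0 to 18 pairs, since 6 libraries reach the threshold only when at least 18 pairs do. The direct share differed by -3.62 to 4.32 percentage points by storage, turning without frozen no preindex replicate 2 or fresh preindex replicate 1, and by -11.4 to -4.18 by primer. The share of Rgs9 nuclei differed by 2.55 to 5.16 and 3.09 to 4.75 points.

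Same-numbered replicates did not deviate together (correlations 0.0169, 0.0401 and -0.0198 between pairs of groups), so no pairing by number was seen. With so few libraries per group, that cannot exclude a pairing. With the replicate number as a block 42 and 380 genes were called for storage and primer in Rgs9 nuclei and 5 and 1731 over all nuclei. Depth limits Pdyn, Tac1 and Drd1 most, with 517 to 1383 UFIs in all Rgs9 nuclei.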
